A study of Mus musculus with 6 samples.

Results

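The genes that license replication origins were compared between melan-a melanocytes and B16 melanoma cells. The set held 10 genes: Mcm2, Mcm3, Mcm4, Mcm5, Mcm6, Mcm7, Cdc6, Cdt1, Gmnn and Cdc45. They are 10 of the 3549 genes that the study lists as differing between the lines, and 2383 of those entries carry a symbol here. B16 is a mouse melanoma line, and melan-a, which does not form tumours, is a melanocyte line with a normal chromosome number and an extended lifespan. Both come from the C57BL/6 strain. Each of 6 arrays held RNA of both lines from a separate biological replicate, and neither line was treated with retinoic acid. Melan-a RNA carried Cy5 and B16 RNA Cy3 on replicates 1, 3 and 5, and the dyes were exchanged on replicates 2, 4 and 6. Melan-a cells grew in RPMI 1640 with 5% fetal bovine serum and 200 nM phorbol ester, B16 cells grew in DMEM with 10% bovine calf serum, and both were harvested 72 h after seeding. Medium, serum, phorbol ester and cell line differ together and cannot be told apart. The B16 cells of the study carry deletions at the Cdkn2a locus and an activating mutation of N-ras, and each side of the comparison is a single line with its own history.

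Before a cell can copy its DNA, each origin of replication has to be licensed. The origin recognition complex marks the site, Cdc6 and Cdt1 then load the ring-shaped helicase made of Mcm2 to Mcm7, and the ring waits there inactive until S phase. Geminin, encoded by Gmnn, binds Cdt1 and keeps origins from being licensed again after they have fired. Cdc45 joins the loaded ring together with the GINS complex and turns it into the active helicase that travels with the fork. Many of these genes are transcribed late in G1 under E2F factors, and their proteins are widely used to mark cells that have not left the cell cycle. In bulk RNA a smaller share of cycling cells and less RNA per cycling cell cannot be told apart.

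The deposited arrays give probe numbers without gene names. A gene was therefore tied to a probe by its measured value: a probe was a candidate for a gene when its mean ratio over the 6 arrays matched the fold the study lists for that gene within 0.00051. The members were thus chosen by a fold change of this same comparison, and their difference between the lines is described here without p-values. Counts of calls among them are given as a description beside the share of all probes, and nothing is read from them. All 10 genes were found, with 40 candidate probes, and no probe was a candidate for more than 1 of them. Mcm2, Mcm3, Mcm5, Mcm7, Cdc6 and Cdc45 had 2 candidates each, Gmnn had 3, Mcm6 had 4, Cdt1 had 5 and Mcm4 had 16. For all but Mcm4, the number of candidates equals the number of listed entries with that same fold. The remaining candidates thus can belong to other listed genes, such as Pole2 beside Mcm7, Kif23 beside Cdt1, and Kif4 and Spdl1 beside Gmnn. The mean ratio of a gene is nearly the same for all its candidates by construction, whereas the values on single arrays depend on which candidate is the true one. The candidate farthest inside the limit missed its listed fold by 0.000495, for Mcm4, and the nearest probe outside it missed by 0.000514, for Mcm6.

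Because E2F factors are known to bind many of these genes, the RefSeq promoters of the members in the mouse assembly GRCm38.p6, 250 bases before to 50 bases after the annotated start, were searched on both strands for the E2F-type words TTTGGCGC, TTTCGCGC, TTTCCCGC, TTTGGCGG, TTTCCCGG and TTTGCCGC. Promoters were at hand for 8 members, and Mcm4 and Gmnn were not matched. At least 1 word was found for 6 of the 8 members (Mcm3, Mcm5, Mcm6, Mcm7, Cdc6 and Cdt1). Counted by promoter it was 6 of 9, since Mcm7 has 2, while 3.98% of all 32851 promoters of that length hold one. The shorter word CCAAT, bound by NF-Y, was found for 6 of the 8 members, in both promoters of Mcm7, against 37.4% of all promoters. The 6 members with CCAAT were Mcm2, Mcm3, Mcm5, Mcm6, Mcm7 and Cdc45. A match describes letters and not a bound site. The stretches that hold the E2F-type words follow, each on the strand of its gene, to show the bases around them. The likeness of the words between members is largely set by the short list of words searched. Capitals mark the words.
Mcm5: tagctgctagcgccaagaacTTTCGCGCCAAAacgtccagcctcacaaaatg
Mcm6: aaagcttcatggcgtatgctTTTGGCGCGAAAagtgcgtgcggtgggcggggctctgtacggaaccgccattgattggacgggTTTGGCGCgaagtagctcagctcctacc
Mcm7, before the start: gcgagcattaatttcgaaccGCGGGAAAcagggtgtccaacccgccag
Mcm7, after the start: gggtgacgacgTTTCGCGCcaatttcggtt
Cdc6: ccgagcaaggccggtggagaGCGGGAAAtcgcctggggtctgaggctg
Mcm3: gGCGGGAAAacttgggaagtTTTGGCGCc
Cdt1: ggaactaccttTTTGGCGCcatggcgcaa

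The Mcm5 stretch lies at chr8:75109336-75109387 on the plus strand, and its words begin 153 and 149 bases before the start. They run on opposite strands and overlap each other. Mcm6 holds the same overlapping pair, turned round, 110 and 106 bases before its start at chr1:128359725-128359835 on the minus strand, and another word 47 bases before it. Mcm7 holds a word 165 bases before its start, at chr5:138172021-138172068 on the minus strand, and another 16 bases after the start, at chr5:138171849-138171878, that shares its last base with a CCAAT. A second annotated start of Mcm7 has CCAAT and no E2F-type word. The word of Cdc6 lies 138 bases before the start, at chr11:98907993-98908040 on the plus strand, and reads in capitals as that of Mcm7 does. The words of Mcm3 begin 19 and 38 bases after the start, at chr1:20820266-20820294 on the minus strand, and the word of Cdt1 begins 32 bases after the start, at chr8:122568036-122568064 on the plus strand. Mcm2 and Cdc45, which rank first and seventh of the 10 by the size of their difference, had none of the searched E2F-type words in this window.

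**Figure D1:**
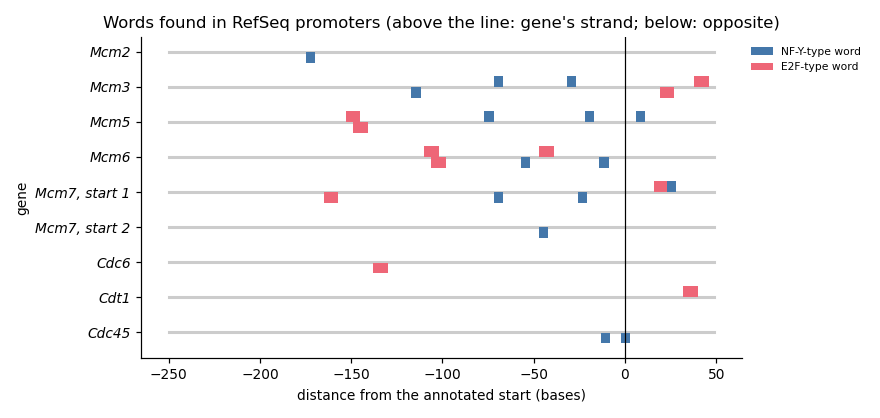
Words found in the RefSeq promoters of 8 members, by distance in bases from the annotated start (vertical line). Red marks E2F-type words and blue the NF-Y-type word, above the grey line on the strand of the gene and below it on the opposite strand. Mcm2, Cdc45 and the second start of Mcm7 carry no red mark.

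All 10 genes had lower mean signals in melan-a than in B16 cells. The log2 ratio of melan-a over B16, averaged over the candidates and the 6 arrays, ran between -2.61 for Mcm2 and -0.59 for Mcm4, with a median of -1.83 over the 10 genes. The median over all probes was 0.01. By this mean the order was Mcm2, Cdc6, Mcm7, Cdt1, Mcm3, Mcm5, Cdc45, Gmnn, Mcm6 and Mcm4. The means of Cdc6 and Mcm7 at -2.19 and -2.18, and those of Mcm3, Mcm5 and Cdc45 between -1.86 and -1.78, lay far closer together than the SD of any of these genes over the arrays, which was 0.62 or more. In a limma fit across 39687 probes, 34 of the 40 candidates were lower with a fold over 1.5 and an adjusted p below 0.10, where 6.31% of all probes were lower by the same rule.

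Mcm2, a subunit of the helicase ring that also carries histones at the fork, had the largest difference of the set, 6.11-fold lower in melan-a cells (mean log2 ratio -2.61, SD 0.69 over 6 arrays for the mean of its candidates). The candidate A_51_P158210 had melan-a signals of 1226, 979.8, 2089, 1233, 8101 and 1351 on replicates 1 to 6, against B16 signals of 3466, 4962, 16481, 16874, 36419 and 10098. The other candidate, A_51_P230878, had melan-a signals of 468, 1253, 1119, 827, 2351 and 218, against B16 signals of 2044, 4078, 8201, 10582, 15112 and 1324. On every array the melan-a signal was the lower of the pair. The signals of a line differ so much between arrays that its brightest array reached the dimmest arrays of the other line, so the difference is read within an array. The log2 ratios of A_51_P158210 were lowest on replicate 4 at -3.77, had a median of -2.62 and were highest on replicate 1 at -1.50. Those of A_51_P230878 were lowest on replicate 4 at -3.68, had a median of -2.64 and were highest on replicate 2 at -1.70.

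**Figure D2:**
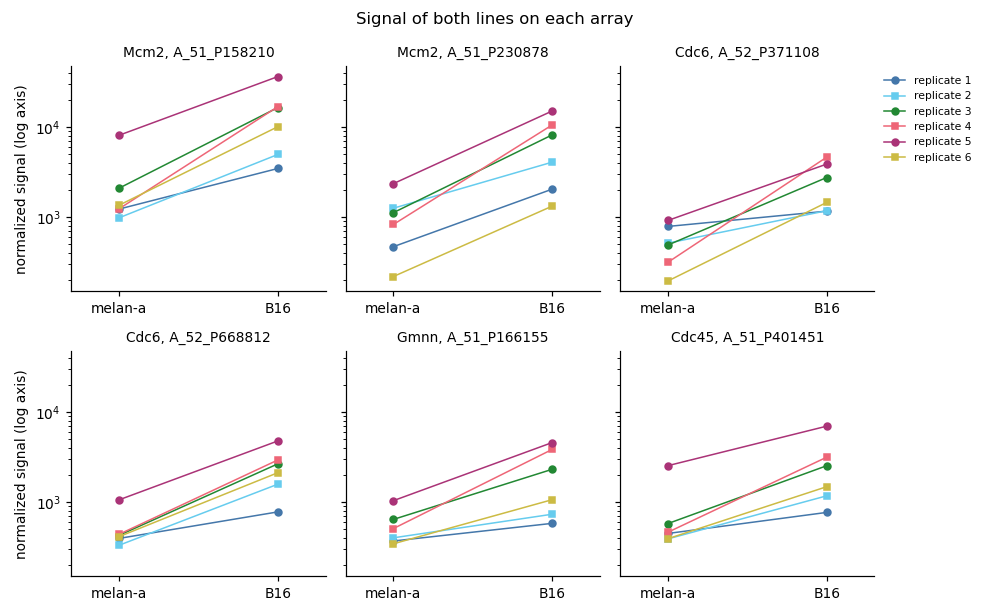
Normalized signal (log axis) of melan-a and of B16 cells for 6 candidate probes of Mcm2, Cdc6, Gmnn and Cdc45, with a line joining the pair measured on each array. Every line climbs to B16, and for the Mcm2 candidate A_51_P158210 the signals run between 979.8 and 8101 in melan-a and between 3466 and 36419 in B16 cells.

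Mcm7 and Mcm3 followed among the subunits of the ring. Mcm7 was 4.53-fold lower in melan-a cells, and its candidate A_51_P165704 had ratios between -3.39 on replicate 4 and -1.59 on replicate 5, with a median of -2.04. The candidate A_51_P269687 had ratios between -2.97 on replicate 6 and -0.88 on replicate 1, with a median of -2.28. The signals of this probe did not overlap between the lines over all arrays, at 181 to 592 in melan-a against 649 to 3428 in B16 cells. Such a gap was seen for 4 of the 40 candidates, against 0.194% of all tested probes and 3.08% of the 2504 probes lower in melan-a cells, and it depends on the size of the difference that chose the members. Mcm3 was 3.63-fold lower, and its candidates disagreed on replicate 1, where A_51_P324934 had a ratio of -1.71 and A_51_P442964 one of -0.10. That was the ratio nearest to 0 among all candidates outside Mcm4. On replicate 1 the signals of A_51_P442964 were 487 in melan-a and 522 in B16 cells. The array's negative control spots reached 510.1 in the melan-a channel at their 95th percentile, so this melan-a value was not above them. The melan-a signals of the Mcm7 candidate A_51_P269687 were above the negative control spots on 4 of 6 arrays, so its gap lies partly near that level.

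Mcm5 and Mcm6 varied over the arrays in another way. Mcm5 was 3.48-fold lower in melan-a cells, and its candidate A_51_P175424 had ratios of -1.61, -2.72, -1.54, -3.22, -1.19 and -0.51 on replicates 1 to 6. The candidate A_51_P190111 had ratios of -2.39, -1.68, -1.22, -3.45, -1.05 and -1.02. Replicate 4 was thus the lowest for both, as for Mcm2, but the highest was replicate 6 and not replicate 1. Mcm6 was 2.18-fold lower, with 4 candidates whose ratios lay between -2.26 and -0.22. Its gene mean was lowest on replicate 2 at -1.74 and highest on replicate 5 at -0.71. The candidate A_51_P360492 was instead lowest on replicate 4 at -1.87, so the course of Mcm6 itself is not known. The SD of the Mcm6 mean over the arrays, 0.39, was smaller than that of any other member but Mcm4. It is the SD of a mean over 4 candidates, which averaging can shrink, and single candidates had an SD of 0.38 to 0.65. The melan-a signals of all candidates of Mcm5 and Mcm6 were above the negative control spots on 6 of 6 arrays.

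Mcm4 had the smallest difference and the least certain identity. Its listed fold matched 16 probes, and 8 listed entries share it, among them Abt1, Dhrs11, Dok5 and Pwp1. The mean was 1.5-fold lower in melan-a cells, at the edge of the study's limit on the fold. Of the 16 candidates, 8 had ratios below 0 on all 6 arrays, against 9.35% of all tested probes, and 10 passed the limma rule, against 6.31%. With the arrays centred on their medians 24 candidates of the set passed, and the 10 that were lost were those of Mcm4. Single values ran between -2.08 and 0.90, and the SD over the arrays was between 0.11 and 0.82 depending on the candidate. No value of a single array can be given to Mcm4 on this basis, and where it enters a median over the genes it does so as the mean of its candidates.

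Cdc6 and Cdt1, the loaders of the ring, were lower in melan-a cells by 4.57-fold and 3.88-fold. The Cdc6 candidate A_52_P371108 had melan-a signals of 786, 512, 488, 313, 916 and 194 on replicates 1 to 6, against B16 signals of 1163, 1176, 2751, 4631, 3879 and 1454. The highest melan-a value lay below the lowest B16 value, so the lines did not overlap. Its log2 ratios were -0.56, -1.20, -2.49, -3.88, -2.08 and -2.90, which is the widest span of any candidate at an SD of 1.19. The other candidate, A_52_P668812, had ratios of -0.98, -2.26, -2.64, -2.75, -2.18 and -2.36, with an SD of 0.64. Both had replicate 4 lowest and replicate 1 highest, although they differ in how far replicate 4 stood from the rest. The 5 candidates of Cdt1, which the study lists under the older name Ris2, had ratios between -3.86 and -0.82, all below 0. They shared a pattern only in part, and the correlation between pairs of them over the 6 arrays ran between -0.65 and 0.97 with a median of 0.445. Replicate 4 was the lowest for all but A_51_P324287, and replicate 1 the highest for all but A_52_P227746. The SD of the ratios of the 5 candidates lay between 0.78 and 0.97. Melan-a signals were above the negative control spots on 3 of 6 arrays for A_51_P324287 and on 4 of 6 for A_52_P14686. For both Cdc6 candidates they were above them on 5 of 6.

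Gmnn, whose product geminin opposes Cdt1, was 3.21-fold lower in melan-a cells, so the inhibitor and its target differed in the same direction. The candidate A_51_P166155 had melan-a signals of 368, 399, 639, 506, 1033 and 343, against B16 signals of 578, 731, 2308, 3841, 4576 and 1060. Its ratios lay between -2.93 on replicate 4 and -0.65 on replicate 1. The other candidates, A_51_P227564 and A_51_P254805, had ratios between -2.38 and -0.74 and between -2.36 and -1.01. Here the candidates were alike, with correlations between 0.91 and 0.95, so that the pattern over the arrays hardly depends on which is the true one. For A_51_P227564 the signals of the lines did not overlap, at 219.7 to 594 in melan-a against 629.8 to 2000 in B16 cells. The melan-a signals of A_51_P166155 and A_51_P227564 were above the negative control spots on 5 of 6 arrays. On replicate 1, where all candidates had their highest ratio, these signals were 368 and 377, against 510.1 at the 95th percentile of those spots.

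Cdc45, which completes the active helicase, was 3.43-fold lower in melan-a cells. The candidate A_51_P401451 had melan-a signals of 446, 388, 574, 460.1, 2529 and 389.9 on replicates 1 to 6, against B16 signals of 765, 1169, 2527, 3144, 6955 and 1478. Its ratios were -0.78, -1.59, -2.14, -2.77, -1.46 and -1.92. The candidate A_52_P30984 had ratios of -0.50, -0.65, -2.04, -3.62, -1.64 and -2.21, and its melan-a signals exceeded the negative control spots on 3 of 6 arrays. Replicate 1 was the highest and replicate 4 the lowest for both.

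**Figure D3:**
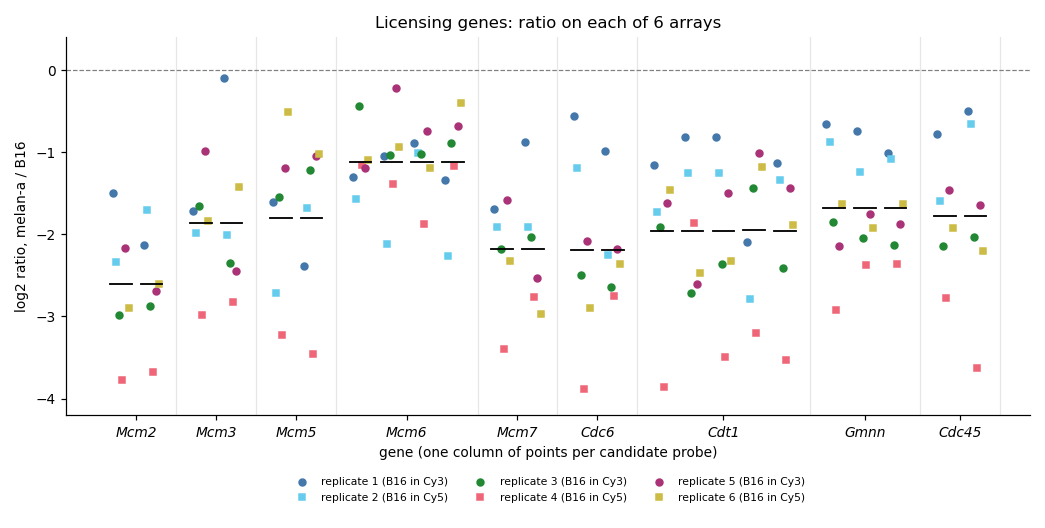
Log2 ratio of melan-a over B16 on each of 6 arrays for the 24 candidate probes of the 9 members other than Mcm4. Circles are arrays with B16 in Cy3, squares arrays with B16 in Cy5, and the black bar is the mean of the 6. All points lie below 0, between -3.88 and -0.10, and the red squares of replicate 4 are the lowest in most columns.

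The candidates of the members other than Mcm4 tended to be lowest on replicate 4 and highest on replicate 1, as other probes lower in melan-a cells also did. Replicate 4 was the lowest for 19 of the 24, against 50.2% of the 2504 probes lower in melan-a cells and 24.5% of all tested probes. Replicate 1 was the highest for 14 of the 24, against 40.1% and 19.8%. All 24 had ratios below 0 on all 6 arrays, as 84.4% of the lower probes and 9.35% of all tested probes had, which follows largely from the size of their means. The median over the 10 genes was -1.03, -1.73, -2.05, -3.13, -1.68 and -1.80 on replicates 1 to 6. The arrays also differed in the spread of all their probes, and replicate 4 had the widest, with an SD of log2 ratios of 0.80 against 0.48 to 0.62 on the other arrays. Expressed in units of the SD of its own array, the median of the genes was -1.78 on replicate 1 and between -3.90 and -2.78 on the others. Replicate 4 at -3.90 then stood close to replicate 6 at -3.73 and replicate 3 at -3.58, and replicate 1 remained the one nearest to 0. On replicate 1 the melan-a signal was not above the 95th percentile of 314 negative control spots for 10 of the 24 candidates, and on the other arrays for 0 to 3 of them. The B16 signals of all 24 were above it on every array. The part of these levels in the smaller ratios of replicate 1 was not tested.

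**Figure D4:**
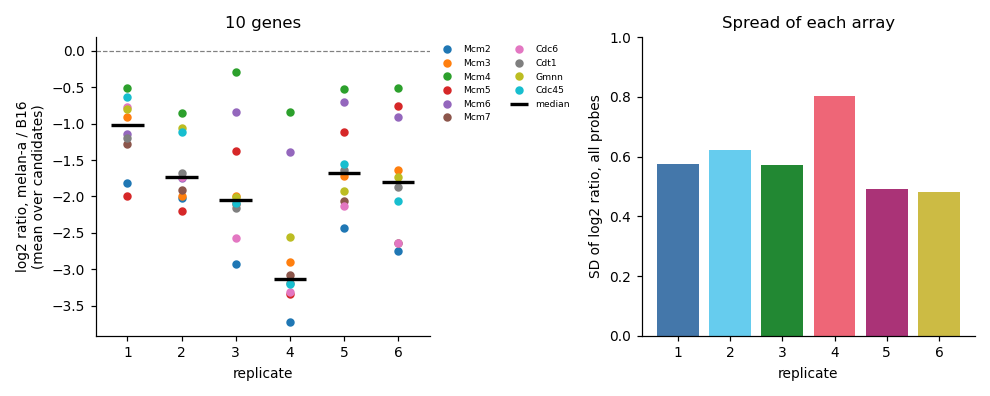
Left, log2 ratio of melan-a over B16 by replicate for the 10 genes (points, mean over the candidates of each gene) with their median (black bars). Right, SD of the log2 ratios of all probes on each array. Replicate 4 has both the lowest median, -3.13, and the widest spread, 0.80.

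Over the 6 arrays, the profiles of the 9 genes other than Mcm4, each a mean over its candidates, correlated with a median Pearson r of 0.85 over 36 pairs, and 32 of the pairs were above 0. The median of Spearman's rho was 0.77. Mcm2 and Cdc45 were the most alike at an r of 0.995, and Mcm6 and Gmnn the least at -0.29. Averaging over candidates hides much of the spread, because some candidates can belong to other genes. Between single candidates of different genes, r ran between -0.74 and 0.995 over 251 pairs with a median of 0.62, and pairs of Mcm3 and Cdt1 candidates reached down to -0.30. The points share the arrays, their dyes and their normalization. Replicates 1 and 4 carry much of the likeness: without them the median r of the 36 pairs was 0.28 and 19 pairs were above 0.

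The genes outside the set with the pattern most like it were sought among 180 listed genes with a symbol and a single candidate probe. Their 6 ratios were compared with the mean profile of the 7 members that have at most 3 candidates, by the root mean square difference. Ercc6l, a DNA translocase of mitotic chromosomes, was nearest at 0.45 with a mean log2 ratio of -2.03. Armcx2 followed at 0.48 with a mean of -2.31, and Klhl13, an adaptor of a Cul3 ubiquitin ligase, at 0.52 with a mean of -2.48.

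The dyes gave a comparison apart from the mean ratio that named the probes, since each orientation is on 3 arrays and the design is balanced. It was not free of the selection: the study's test divides by the spread over these arrays, which a dye difference widens. A probe with a large dye difference was thus less likely to be listed. In limma, the ratio with melan-a in Cy5 minus the ratio with melan-a in Cy3 differed from 0 for 16 of 39659 probes at an adjusted p under 0.10, which is 0.0403%, and for 5222 at an unadjusted p under 0.05. None of the 40 candidates passed, which the selection can in part have set. Their adjusted p in limma lay between 0.232 and 0.988, and 6 had an unadjusted p under 0.05, 1 of Mcm3 and 5 of Mcm4. The Mcm3 candidate A_51_P324934 had a dye difference of 0.81 (SE 0.35, adjusted p = 0.365 in limma). The difference was above 0 for 34 of the 40 candidates with a median of 0.51, so melan-a appeared lower relative to B16 where melan-a RNA carried Cy3. Over all probes the median was -0.005 and 49.5% were above 0, but over the 2504 probes lower in melan-a it was 0.37 and 77.7% were above 0. The 40 include the 16 candidates of Mcm4, which cannot be told apart. Outside Mcm4, only the Cdt1 candidate A_51_P324287 had a dye difference below 0, at -0.18. With the ratios of all arrays scaled to the same spread, the median of the candidates was 0.30 and 30 were above 0. Replicate 4, with melan-a in Cy3, was the lowest for 26 of the 40 candidates, against 50.2% of the lower probes. Replicate 1, with melan-a in Cy5, was the highest for 21, against 40.1%. The part of these arrays in the dye difference was not tested.

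The mean ratio was below 0 in both orientations for every candidate but 1, the Mcm4 candidate A_51_P454726, which averaged 0.03 with melan-a in Cy5 and -1.20 with melan-a in Cy3. The Mcm2 candidate A_51_P158210 averaged -2.22 with melan-a in Cy5 and -3.01 with melan-a in Cy3, and A_51_P230878 averaged -2.56 and -2.66 in the same order. Among the Cdc6 candidates, A_52_P371108 had the larger dye difference at 0.95 (SE 0.68, adjusted p = 0.575 in limma). That of the Gmnn candidate A_51_P254805 was 0.02 (SE 0.39, adjusted p = 0.988 in limma). The SE of the dye difference was 0.21 to 0.68 over the 40 candidates, so these p-values do not show that the dyes had no effect.

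Other genes around licensing were taken from lists of known factors, and only genes in the study's list could be found, so a gene that is not found has no value here. Since a gene is found through a fold the study called, its passing the limma rule and its direction were largely set by that choice, and the counts are a description. Of 23 further genes for licensing and origin firing, 10 were found, all 10 of them lower in melan-a cells with every candidate. Over all probes, 2504 of the 4580 that passed were lower. Dbf4, the activating subunit of the kinase that fires origins, was 3.69-fold lower with 2 candidates, and Cdc7, the kinase itself, 1.74-fold lower with 9 candidates that it shares with Gins4. Mcm10, which helps the ring to activate, was 3.61-fold lower with 3 candidates. Orc1, the largest subunit of the origin recognition complex, was 2.81-fold lower with 4. Wdhd1, which links the helicase to polymerase alpha, had a single candidate with a mean ratio of -1.50 (SD 0.59, n = 6), 2.84-fold lower, and its values lay between -2.06 and -0.62. Its melan-a signal was above the 95th percentile of the negative control spots on 3 of 6 arrays, so this fold is not exact. The other subunits of the origin recognition complex (Orc2 to Orc6), Mcm8, Mcm9, Gins1, Gins2, Gins3, Recql4, Ticrr and Kat7 were not found.

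Among 13 regulators of licensing, 7 were found, and 6 were lower with every candidate. Ccna2, the cyclin of S and G2 phase, was 4.21-fold lower with 2 candidates, and Dtl, which directs the destruction of Cdt1 in S phase, was 2.41-fold lower with 3. Ccne2 had candidates on both sides of the threshold. Among 13 E2F and pocket proteins, 5 were found, and all 5 were lower. E2f1, an activator of S-phase genes, was 1.82-fold lower with 5 candidates, and E2f7, which represses such genes, was 2.60-fold lower with its single candidate (SD 0.70, n = 6), whose melan-a signal was likewise above the negative control spots on 3 of 6 arrays. Rbl1, which encodes the pocket protein p107, was 2.88-fold lower with 2. Of 2700 probes with a fold over 1.5 in this direction, 92.7% passed.

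**Figure D5:**
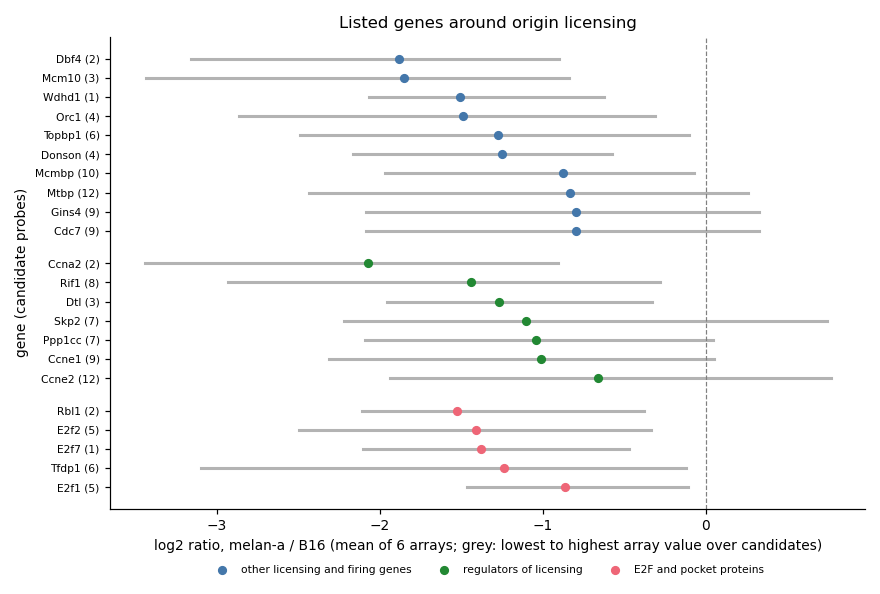
Mean log2 ratio of melan-a over B16 (points, mean of 6 arrays) for the listed genes around licensing, with the number of candidate probes in brackets and grey bars from the lowest to the highest value of any array and candidate. Every mean is below 0, and Dbf4 and Mcm10 lie farthest among the licensing and firing genes.

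General markers of dividing cells moved in the same direction: Top2a was 9.49-fold, Ccnb1 8.28-fold and Pcna 4.83-fold lower in melan-a cells, and Mki67 was not found. Their part in the differences of the licensing genes was not tested. Of 11 markers of the melanocyte lineage, 3 were found. Kit was 1.85-fold higher in melan-a cells, and Oca2 5.86-fold higher with ratios between -0.06 and 4.94. Gpnmb was 2.08-fold lower with 4 candidates, some of which can belong to Dpy30, Gart or Zc3h15. Among 6 fibroblast markers Col1a1 alone was found, 7.18-fold higher in melan-a cells with ratios between 0.83 and 5.57, and of 3 leukocyte markers 0 were found. Whether fibroblasts contributed to the melan-a samples was not tested.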

How the data were processed

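RNA of melan-a and B16 cells was put on 6 Agilent mouse arrays, both lines on each, with 3 arrays for each dye orientation. The authors extracted the signals in ImaGene 6.0.1, and per the file headers the deposited values are log2 signals after a global lowess normalization (smoothing 0.2) without background correction, so dim probes give ratios closer to 0. Ratios were turned to melan-a over B16 by the dye labels and the image named in each header, since replicate 3 lists Cy5 first. The deposited series matrix holds the same log2 ratios, but its columns of replicates 4 and 5 hold each other's array, so it served only as an alternative. The medians of its columns lie between -0.048 and 0.028, and it is neither centred nor scaled further. Each array has 44290 spots, of which 41534 are probe spots of 41174 probes.

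For the fits, a spot entered if its 2 signals summed to more than 400, and a probe entered with 3 or more arrays. The study sets that limit on background-subtracted intensity. limma 3.58.1 in R 4.3.3 tested the mean ratio, and a second fit the dye orientation, with Benjamini-Hochberg adjustment over all probes. One-class SAM used 64 sign permutations (median false discovery rate 9.955%). The scripts were tested on simulated data. Tables and plots were made in Python 3.11.15 (pandas 2.3.3, numpy 2.4.6, matplotlib 3.10.9, scipy 1.17.1). The number of arrays limits the precision, and p-values measure the spread between these replicates.

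The members and gene lists were chosen with earlier results of these data known. Named are the members, list genes with at most 3 candidates, and Orc1, Mcm10, Cdc7 and E2f1 whatever their candidates, and the 3 genes nearest in pattern. Outside that rule, Ccne2, Gins4, the marker genes found, and genes that were not found or share a listed fold are also named. Symbols came from the RefSeq gene table by accession for 2283 entries, by symbol for 41 and by synonym for 59; 1166 entries stayed without a symbol. The comparison with negative control spots (the 314 spots of 1 control sequence per array), the shares of all probes with a like pattern, the scaling of arrays to a common spread and the leaving out of replicates 1 and 4 together were chosen after seeing the data. The columns of the study's own fold changes served only to name probes. The protein comparison planned for Mcm2 to Mcm7 was not made. Alternatives were the median signals, centring, other intensity limits, the series matrix, each dye orientation alone and each replicate left out.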

Additional observations from a re-analysis of the deposited data

Results flagged for a closer look

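Of the 40 candidate probes, 3 had an array whose ratio stood apart from the other 5, by the gap to its nearest neighbour as a share of the whole range (Dixon's criterion at the 95% level). Chance alone flags about 1 in 20 groups. The Mcm4 candidate A_52_P644903 had its highest ratio on replicate 3 at 0.09 (share 0.642). The Cdc6 candidate A_52_P668812 had its highest ratio on replicate 1 at -0.98 (share 0.677), and the Cdt1 candidate A_51_P133612 its lowest on replicate 4 at -3.86 (share 0.723). On replicate 1 the melan-a signal of this Cdc6 candidate was 393, where the negative control spots reached 510.1 at their 95th percentile. The Cdc6 and Cdt1 arrays are those with the smallest and the largest median difference of the licensing genes, and the cause was not tested.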

How the results depend on the processing

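The sign of the 10 genes' ratios was fixed by how their probes were found, so that all 130 alternatives lie below 0 is no sign of stability, and the series matrix and the limit of 400 return the values themselves. Their median of -1.83 ran between -2.03 without replicate 1 and -1.58 without replicate 4, and between -2.15 and -1.56 over the other alternatives. The probes past the thresholds were 4580 in all. With 1 replicate left out they numbered between 3603 without replicate 2 and 5050 without replicate 1. Over the other alternatives they numbered 4503 to 5481, with 4730 by SAM. The candidates past, 34 in the limma fit, numbered 25 without replicate 2 to 32 without replicates 1, 3 or 5, 35 by SAM and 24 with the arrays centred on their medians, where the Mcm4 mean lies at the limit on the fold. The 16 probes with a dye effect became 52 with the arrays scaled to one spread, and 0 without replicate 5 to 58 without replicate 6, so this count rests on single arrays. No candidate had a dye effect in any of these fits, which the selection can in part have set as well. Every fit tests ratios within an array and is thereby paired. Signals were not background-corrected, and 11 of the 24 candidates outside Mcm4 had a melan-a signal within the range of the negative controls on at least 1 array, which limits how low their ratio can be read. The folds of some genes around licensing and of Ccnb1, Pcna and Col1a1 share this limit on at least 1 array.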
